A study of Homo sapiens with 48 samples.

Results

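The early transcriptional response of MEL202 cells to FHT-1015 was taken from the MEL202 libraries labelled 4h: 3 treated with FHT-1015 and 3 given DMSO, the solvent, as the negative control, which is 6 of the 48 samples of the series. MEL202 is an established human uveal melanoma cell line, a cancer of the pigment cells of the eye, and its genotype is labelled WT. FHT-1015 is a small molecule that inhibits the related ATPases SMARCA4 and SMARCA2, and the labels give no dose. Each group has 3 biological replicates of this single line, as labelled. For comparison, the MEL202 samples of 24 h (3 FHT-1015, 3 DMSO) and the 4 h and 24 h samples of 2 other uveal melanoma lines, 92-1 and MP41, each with its own DMSO samples, were used. The rest of the series, 92-1 samples treated with the compound IDE196 and their DMSO samples, entered only an alternative fit of all 48 samples. Of the 58870 genes in the files, the 15913 that passed a filter on low counts were tested.

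SMARCA4 and SMARCA2 are the interchangeable motors of the BAF (SWI/SNF) complexes, which use ATP to slide or evict nucleosomes and so keep enhancers open to transcription factors. In pigment cells, enhancers bound by SOX10 and MITF, the transcription factors that specify the melanocyte lineage, hold BAF complexes and drive the genes of melanin synthesis. Uveal melanomas usually carry an activating mutation of a Gq-class G protein, which signals through protein kinase C and the MAP kinase cascade to immediate early genes and feedback inhibitors such as the DUSP and SPRY families. A time of a few hours after an inhibitor is added is commonly used to look at transcripts that turn over fast, before slower changes of cell state.

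The 6 libraries held between 17194094 and 21977001 reads in genes, and 1 treated library stood apart. FHT-1015 replicate 2 had a read in 17592 genes, against 21106 to 22361 in the other 5 libraries, although it had the most reads. In that library 130 of 13014 genes with at least 10 reads in each of the other 5 libraries had no read, against 0 to 7 such genes in each of the others. The GC trend of a library, the median log2 deviation from the MEL202 mean of GC-rich genes minus that of AT-rich genes (above 61.7% and below 39.8% GC), was 1.09 in FHT-1015 replicate 2 and 1.36 in DMSO replicate 1, and between -0.41 and 0.00 in the other 4. Each group thus held 1 library with a strong trend towards GC-rich genes. Each of 8 melanocytic markers was above 1 CPM (reads scaled to library size) in at least 1 of the 4 h libraries (DCT at 0.436 CPM in its lowest), and their summed level was 8615 to 9908 CPM under DMSO and 9158, 6407 and 8480 CPM under FHT-1015. The summed level of 6 epithelial markers was 12.7 CPM in FHT-1015 replicate 2 and at most 6.93 CPM in the other libraries, and that of 7 fibroblast markers was 13.2 CPM there and at most 4.26 CPM elsewhere. The mitochondrially encoded genes summed to 48524 CPM in FHT-1015 replicate 2 and to 30100 to 41734 CPM in the other 5 libraries. Of the other classes looked at, immune markers reached at most 6.22 CPM, endothelial markers at most 1.47 CPM and red cell markers at most 0.118 CPM. The part of these library differences in the results was not tested; the counts of calls are given also with offsets for GC content and gene length and without FHT-1015 replicate 2.

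**Figure D1:**
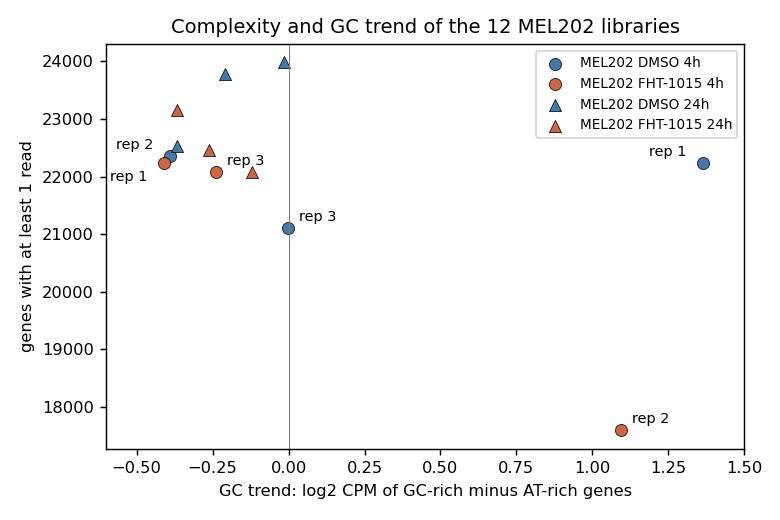
Genes with at least 1 read (vertical axis) against the GC trend in log2 units (horizontal axis) for the 12 MEL202 libraries, 1 point each, with blue for DMSO, orange for FHT-1015, circles for 4 h (numbered by replicate) and triangles for 24 h. FHT-1015 4 h replicate 2 has the fewest genes with a read (17592), and it and DMSO replicate 1 have the strong GC trends (1.09 and 1.36).

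Few genes passed the test at 4 h, and most of those that did were lower with FHT-1015. Of 15913 genes tested, 25 (0.157%) rose and 83 (0.522%) fell at an adjusted p under 0.05 (edgeR quasi-likelihood test, Benjamini-Hochberg adjustment over all genes tested), so that 23.1% of the calls were higher. With offsets for GC content and length, 155 genes (0.974%) rose and 250 (1.57%) fell, 2.55% in all, and 38.3% of the calls were higher. Without FHT-1015 replicate 2, 25 genes (0.153% of 16359) rose and 112 (0.685%) fell, 0.837% in all. The calls of all 3 fits were shared by 19 of the 25 higher and 70 of the 83 lower genes, and these are termed held. In each of the 25 higher genes every treated library lay above every DMSO library, and in each of the 83 lower genes below, which 4.29% and 4.86% of all tested genes also did. The number of calls rested on the other 2 treated libraries: without FHT-1015 replicate 1 it was 6 higher and 28 lower, and without replicate 3 it was 6 higher and 22 lower. It also fell when a DMSO library was left out, to 13, 16 and 12 higher and 49, 65 and 70 lower genes without replicate 1, 2 and 3, in that order. The 24 h libraries enter the same fit, and without replicates 1, 2 and 3 it was 17, 19 and 12 higher and 62, 53 and 49 lower genes for DMSO, and 16, 14 and 15 higher and 59, 53 and 51 lower genes for FHT-1015. The median log2 fold change over all genes was -0.024, and the median SE of a gene was 0.31.

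**Figure D2:**
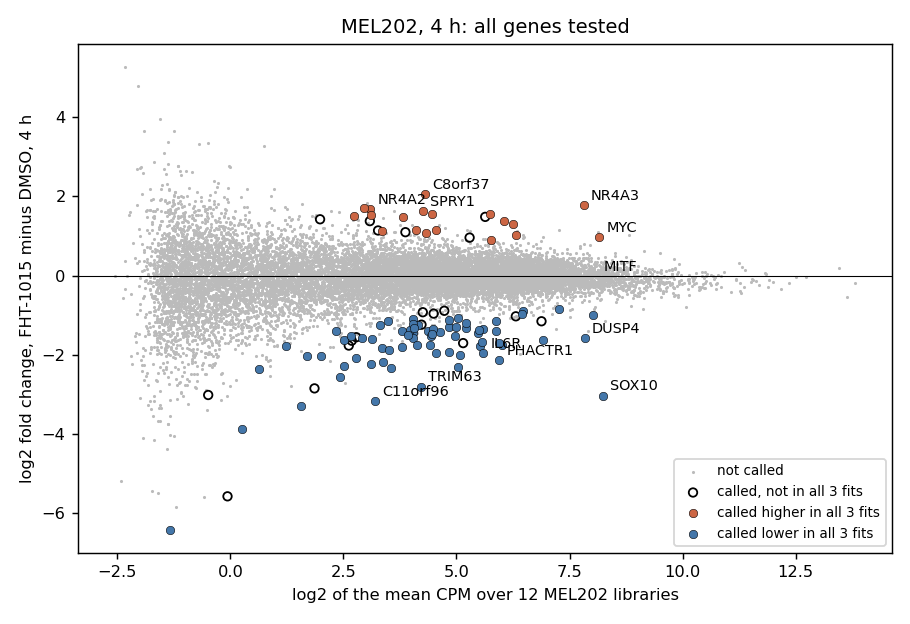
Log2 fold change at 4 h (FHT-1015 minus DMSO, vertical axis) against the log2 of the mean CPM (horizontal axis), 1 point per tested gene, with held genes in orange (higher) or blue (lower), other calls as open circles and genes not called in grey. The 83 lower calls outnumber the 25 higher calls, and SOX10 is the lower call with the smallest p.

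SOX10, the neural crest transcription factor on which melanocytes depend, fell most clearly of all genes by p. Its level (ENSG00000100146.17 on GRCh38, chr22:37970686-37987422, minus strand, overlapped by POLR2F on the other strand) was 689, 473 and 397 CPM in the DMSO libraries and 56.2, 82.7 and 51.2 CPM in the FHT-1015 libraries. Every treated library was far below every DMSO library, including replicate 2. This is an 8.20-fold lower level. For SOX10, the log2 fold change was -3.04 (SE 0.25, adjusted p = 0.000179), and the call was kept when any 1 library was left out. It was lost when only the 6 libraries of 4 h were fitted (log2 fold change -3.02), a fit in which 0 genes passed in edgeR (589 at an unadjusted p under 0.05). As in every bulk RNA measurement, fewer cells with the transcript and less transcript per cell cannot be told apart. SOX8, the close relative of SOX10 that can act on the same sites, had 78.6, 81.3 and 99.0 CPM under DMSO and 22.1, 45.2 and 30.5 CPM under FHT-1015. For SOX8, the log2 fold change was -1.40 (SE 0.25, adjusted p = 0.0212). The SOX8 groups did not overlap, but the call was lost without DMSO 4 h replicate 3 (-1.29), FHT-1015 4 h replicate 1 (-1.19) or FHT-1015 4 h replicate 3 (-1.35).

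MITF, the master regulator of pigment genes, was not called at 4 h. MITF measured 238, 375 and 284 CPM under DMSO and 366, 251 and 269.9 CPM under FHT-1015, and the groups overlapped. For MITF, the log2 fold change was -0.015 (SE 0.23, adjusted p = 0.996). Among the 20 tested genes of the list of melanocyte lineage transcription factors, 0 rose in edgeR (1 higher at an unadjusted p under 0.05; 0 by DESeq2 and limma-voom) and 2 fell (SOX10 and SOX8), beside 0.522% of all genes lower and 0.157% higher, with a median log2 fold change of 0.023 against -0.024 for all genes. With GC and length offsets 5 fell, SOX9 (-0.84), SOX13 (-0.98) and IRF4 (-1.997) being the added ones, beside 1.57% of all genes lower in that fit. PAX3, which acts with SOX10 on MITF, had a log2 fold change of 0.060, and TFAP2A, another regulator of pigment genes, 0.20; neither passed the test.

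Transcripts of both targets of the compound were present in all libraries. SMARCA4 measured 595, 455 and 289.9 CPM under DMSO and 442, 842 and 398 CPM under FHT-1015. For SMARCA4, the log2 fold change was 0.33 (SE 0.30, adjusted p = 0.878). The highest SMARCA4 value was that of FHT-1015 replicate 2. SMARCA2 measured 71.8, 81.3 and 54.5 CPM and 81.1, 76.8 and 67.5 CPM. For SMARCA2, the log2 fold change was 0.12 (SE 0.20, adjusted p = 0.953). The groups overlapped for both genes, the sign of both differences and of that of MITF changed between alternative fits, and a transcript level does not measure the ATPase activity that the compound inhibits. Of the 27 tested BAF subunit genes 1 rose, beside 0.157% of all genes: BICRAL, a subunit of the non-canonical form of the complex, from 22.4, 32.6 and 14.2 CPM to 61.6, 84.8 and 46.8 CPM. For BICRAL, the log2 fold change was 1.48 (SE 0.30, adjusted p = 0.0404). In edgeR 0 of the 27 fell (0 also at an unadjusted p under 0.05, with DESeq2 and with limma-voom). BICRAL was not called without FHT-1015 replicate 2, nor in 10 of the other 11 fits that left out 1 library (log2 fold changes of 1.23 to 1.68 in the fits that lost it).

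Of 23 tested genes of melanin synthesis and the melanosome, 0 passed in either direction in edgeR at 4 h, beside 0.679% of all genes, so the count does not set the list apart. At an unadjusted p under 0.05 edgeR gave 0 higher and 2 lower, and after adjustment DESeq2 gave 0 and 2 and limma-voom 0 and 0. Their median log2 fold change was -0.19, with 20 of the 23 below 0 and 3 above, beside 8379 and 7532 of all genes tested. TYR, the first enzyme of melanin synthesis, was at 159.9, 142 and 160.2 CPM under DMSO and 173, 113 and 137 CPM under FHT-1015 (log2 fold change -0.12), and PMEL, which forms the melanosome fibrils, at 4912, 3133 and 4238 and 4069, 3586 and 3460.4 CPM (-0.14). The largest negative value of the list was that of CAPN3 (-2.16, adjusted p = 0.0930), a protease gene expressed in melanocytes, which was lower by the test with GC and length offsets together with HPS4 (-0.54), a subunit of a complex that builds melanosomes, beside 1.57% of all genes lower in that fit. Among 17 tested genes of the neural crest and the Schwann lineage, 0 rose (0 also at an unadjusted p under 0.05, by DESeq2 and by limma-voom) and 1 fell (SOX8), beside 0.522% of all genes lower, with a median of -0.26; ERBB3, a receptor that SOX10 is known to control, had a log2 fold change of -0.68 (adjusted p = 0.565).

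Immediate early genes, which cells switch on within minutes of a signal without new protein, moved in both directions. Of 29 tested, 4 rose (NR4A3, NR4A2, MYC and KLF10) and 1 fell (BTG2), against 0.679% of all genes called in either direction, and the median over the list was -0.069. With GC and length offsets 7 rose, EGR1 (0.99), JUNB (0.63) and FOSL2 (1.02) being added, and 2 fell, IER5 (-0.92) being added, beside 0.974% of all genes higher and 1.57% lower in that fit. FOS, the classical serum-response gene, had a log2 fold change of -0.042 and JUN, its partner in AP-1, -0.19; neither passed the test.

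NR4A3, an orphan nuclear receptor gene induced by cyclic AMP and calcium signals, was among the largest rises. Its promoter is shown because it holds 3 copies of TGACG, the half-site that CREB binds, which is the factor known to induce the family. The stretch lies on GRCh38.p14 at chr9:99821746-99821836, plus strand, bases -139 to -49 from the RefSeq start of NR4A3, with the TGACG half-sites in capitals (CGTCA where the half-site is on the other strand).
NR4A3: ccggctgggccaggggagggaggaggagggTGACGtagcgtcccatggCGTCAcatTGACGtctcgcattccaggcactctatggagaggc
Promoters of 300 bases, 250 before to 50 after the start, with at least 3 TGACG half-sites on either strand made up 2.63% of those of tested genes, 2 of the 13 held higher genes with a promoter in the RefSeq table, NR4A3 being 1 of them, and 0 of the 48 held lower genes. At least 1 half-site was in 34.2% of the promoters of tested genes, in 5 of the 13 and in 13 of the 48; the search and its cut were chosen after the values were seen. The full site TGACGTCA, searched on both strands and containing the half-site, was in 3.23% of 10715 promoters of tested genes and in 1 of these 13 and 1 of these 48. The other motifs searched, on either strand, were the SOX motifs ACAAAG (10.8% of the promoters of tested genes, 4 of the 13 and 8 of the 48) and ACAATG (5.94%, 3 and 2). The M-box core CATGTG was in 6.65%, 4 and 6, the E-box CACGTG in 10.2%, 3 and 3, and the AP-1 motif TGANTCA in 4.37%, 0 and 2. A match is a string of letters and does not show that a factor binds there.

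NR4A3 (ENSG00000119508.18, chr9:99821855-99866891, plus strand) rose from 159, 177 and 114 CPM under DMSO to 603, 489 and 456 CPM under FHT-1015. All treated libraries were above all DMSO libraries, a 3.44-fold rise. For NR4A3, the log2 fold change was 1.78 (SE 0.22, adjusted p = 0.00259). NR4A2 (ENSG00000153234.14, chr2:156324432-156342348, minus strand), of the same receptor family, rose from 3.97, 4.58 and 3.91 CPM to 14.0, 14.3 and 11.5 CPM. For NR4A2, the log2 fold change was 1.67 (SE 0.25, adjusted p = 0.00604). The remaining member, NR4A1, was at 226, 116 and 122 CPM under DMSO and 115, 145 and 117 CPM under FHT-1015 and was not called (log2 fold change -0.30). The NR4A3 and NR4A2 calls were kept when any 1 library was left out, and NR4A2 was not called by limma-voom.

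KLF10, a zinc-finger gene induced early by TGF-beta, rose from 58.7, 67.2 and 70.8 CPM to 135, 131 and 131 CPM. For KLF10, the log2 fold change was 1.01 (SE 0.17, adjusted p = 0.0154). Its treated libraries lay close together and apart from the DMSO ones. Its call was lost without FHT-1015 4 h replicate 1 (0.99) or FHT-1015 4 h replicate 3 (1.04). MYC, the growth-promoting transcription factor gene, rose from 322, 234 and 247 CPM to 542, 504 and 521 CPM. For MYC, the log2 fold change was 0.96 (SE 0.19, adjusted p = 0.0367). The MYC groups did not overlap, but the call was lost in 9 of the 12 fits that left out 1 library, with log2 fold changes of 0.87 to 0.99 there. BTG2 (ENSG00000159388.6, chr1:203305491-203309602, plus strand), an antiproliferative gene that p53 and other signals induce, fell from 24.0, 24.6 and 25.9 CPM to 8.95, 10.1 and 9.12 CPM. For BTG2, the log2 fold change was -1.40 (SE 0.20, adjusted p = 0.00577). No single library decided the BTG2 call. The 3 BTG2 values of each group differed little compared with the distance between the groups.

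**Figure D3:**
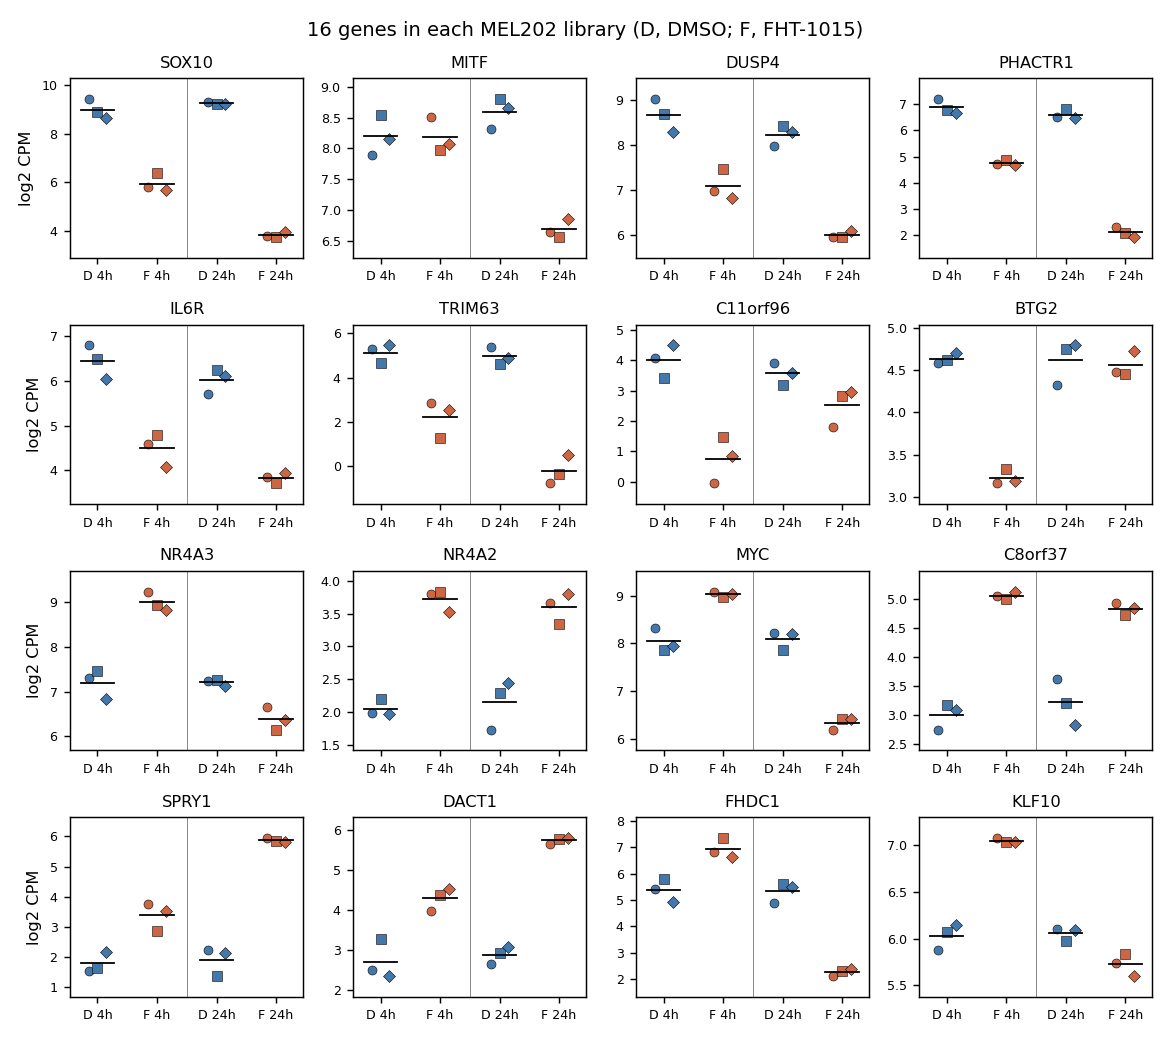
Expression (log2 CPM, each gene on its own scale) of 16 genes in the 12 MEL202 libraries at 4 h and 24 h, with circle, square and diamond for replicates 1, 2 and 3, blue for DMSO (D), orange for FHT-1015 (F), and a black line at the mean of the log2 values. In SOX10 at 4 h the treated libraries lie between 51.2 and 82.7 CPM and the DMSO ones between 397 and 689, in NR4A3 the treated ones lie between 456 and 603 above the DMSO ones between 114 and 177, and the MITF groups overlap at 4 h.

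Genes that report on MAP kinase signalling also split. Of 25 tested, 3 rose (SPRY1, SPRY2 and MYC) and 1 fell (DUSP4), beside 0.157% of all genes higher and 0.522% lower, with a median of -0.33. With GC and length offsets 3 rose and 5 fell, with DUSP10, EPHA2, DUSP8 and SPRY4 added to DUSP4, beside 0.974% and 1.57% of all genes. DUSP4, a nuclear phosphatase gene that ERK induces and that switches ERK off, fell from 516, 411 and 312 CPM to 125, 176 and 113 CPM. For DUSP4, the log2 fold change was -1.58 (SE 0.24, adjusted p = 0.00677). All treated libraries were below all DMSO libraries, and the call was lost without FHT-1015 4 h replicate 1 (-1.52) or FHT-1015 4 h replicate 3 (-1.44). SPRY1, which codes for a feedback inhibitor of receptor tyrosine kinase signalling, rose from 2.91, 3.11 and 4.50 CPM to 13.7, 7.24 and 11.6 CPM. For SPRY1, the log2 fold change was 1.63 (SE 0.29, adjusted p = 0.0212). The SPRY1 groups did not overlap, though replicate 2 was the lowest treated library, and the call was lost without DMSO 4 h replicate 1 (1.51), DMSO 4 h replicate 2 (1.55), FHT-1015 4 h replicate 1 (1.43) or FHT-1015 4 h replicate 3 (1.60). Its relative SPRY2 rose from 36.8, 41.3 and 43.4 CPM to 72.3, 72.7 and 80.3 CPM. For SPRY2, the log2 fold change was 0.89 (SE 0.17, adjusted p = 0.0299), and the call was lost in 11 of the 12 fits without 1 library (log2 fold changes of 0.83 to 0.94). The SPRY2 call was also lost with no filter on low counts (0.88). DUSP6, another ERK phosphatase gene, and CCND1, the cyclin D1 gene that MAP kinase signals raise, had log2 fold changes of -0.20 and -0.59 and did not pass. Upstream, of 19 tested genes of the Gq and protein kinase C pathway 0 passed in edgeR, beside 0.679% of all genes. At an unadjusted p under 0.05, 1 was higher and 1 lower. DESeq2 and limma-voom each called 0 higher and 1 lower, beside 1.53% and 0.622% of all genes lower. With GC and length offsets 0 were higher and 1 lower, beside 1.57% of all genes lower. GNAQ and GNA11, the G proteins themselves, had log2 fold changes of 0.084 and -0.041.

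IL6R, the gene of the interleukin 6 receptor, was lower in every treated library. IL6R (ENSG00000160712.13, chr1:154405193-154469450, plus strand) measured 111, 89.7 and 65.9 CPM under DMSO and 24.1, 27.7 and 16.9 CPM under FHT-1015, 3.87-fold lower. For IL6R, the log2 fold change was -1.95 (SE 0.25, adjusted p = 0.00347), and the call was kept without any 1 library. CISH, a cytokine-induced inhibitor of STAT signalling whose gene overlaps MAPKAPK3 on the other strand, was at 10.3, 9.21 and 12.3 CPM and 3.19, 5.32 and 2.57 CPM. For CISH, the log2 fold change was -1.52 (SE 0.32, adjusted p = 0.0483), and the call was lost in 11 of the 12 fits without 1 library (log2 fold changes of -1.61 to -1.30). The CISH call was also lost with RLE normalization (-1.51) and with the sum of the stranded columns (-1.48). In edgeR 0 of the 22 tested genes of the IL6 receptor and JAK-STAT list rose and these 2 fell, beside 0.522% of all genes lower. Of the 22, 2 were higher at an unadjusted p under 0.05; DESeq2 called 0 higher and 5 lower (1.53% of all genes lower), and limma-voom 0 and 2 (0.622%). With GC and length offsets SOCS3 (-1.21), PIM3 (-0.72) and STAT5A (-0.80) were lower too. IL6ST, the shared signal-transducing chain of the receptor, had a log2 fold change of -0.45 and STAT3 of -0.043, and neither passed.

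The genes described next are among the largest falls and rises of held protein-coding genes whose mean reached 5 CPM and whose groups do not overlap, so the lack of overlap was fixed by their choice. C11orf96, a gene of poorly known function, fell from 16.9, 10.8 and 22.5 CPM to 0.961, 2.80 and 1.80 CPM. For C11orf96, the log2 fold change was -3.16 (SE 0.43, adjusted p = 0.00467). TRIM63, the muscle ubiquitin ligase MuRF1, was at 39.0, 25.2 and 43.6 CPM under DMSO and 7.23, 2.38 and 5.84 CPM under FHT-1015. For TRIM63, the log2 fold change was -2.81 (SE 0.40, adjusted p = 0.00594). Replicate 2 was the lowest TRIM63 library. No single library decided the call of either gene. PHACTR1, an actin and phosphatase regulator that TBC1D7 overlaps on the other strand (ENSG00000112137.17, chr6:12716805-13290484, plus strand), had 145, 108 and 101 CPM and 25.9, 29.1 and 25.4 CPM. For PHACTR1, the log2 fold change was -2.14 (SE 0.21, adjusted p = 0.000591). This was the second smallest p after SOX10. PLEKHO2, which codes for a pleckstrin-homology protein and overlaps the annotated gene AC069368.1 on the same strand, fell from 63.3, 47.2 and 55.5 CPM to 11.7, 15.7 and 13.9 CPM. For PLEKHO2, the log2 fold change was -2.01 (SE 0.20, adjusted p = 0.000690). ASB2, a ubiquitin ligase adaptor, fell from 15.5, 12.6 and 12.2 CPM to 3.69, 3.07 and 2.78 CPM. For ASB2, the log2 fold change was -2.08 (SE 0.29, adjusted p = 0.00506).

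DLL4, a NOTCH ligand of vessel cells, went from 9.25, 6.28 and 9.30 CPM to 1.26, 2.02 and 1.80 CPM. For DLL4, the log2 fold change was -2.28 (SE 0.32, adjusted p = 0.00506). CX3CL1, the membrane-bound chemokine fractalkine, went from 16.6, 12.4 and 11.4 CPM to 2.93, 4.17 and 1.42 CPM. For CX3CL1, the log2 fold change was -2.24 (SE 0.33, adjusted p = 0.00604). The 5 endothelial markers summed to 0.948 to 1.47 CPM under DMSO and 0.601 to 0.758 CPM under FHT-1015, with TEK at 0 in all 6 libraries, and their part in these values was not tested. EVA1A, a gene of autophagy and cell death, fell from 41.4, 39.6 and 61.9 CPM to 9.61, 6.33 and 13.2 CPM. For EVA1A, the log2 fold change was -2.29 (SE 0.28, adjusted p = 0.00252). DEPP1, a target of FOXO factors that overlaps RASSF4 on the other strand, fell from 10.1, 6.63 and 14.2 CPM to 1.67, 3.07 and 2.02 CPM. For DEPP1, the log2 fold change was -2.18 (SE 0.31, adjusted p = 0.00577). DGKI, a kinase that removes diacylglycerol, the lipid that activates protein kinase C, was at 13.4, 35.5 and 14.6 CPM and 4.35, 5.09 and 3.17 CPM. For DGKI, the log2 fold change was -2.33 (SE 0.39, adjusted p = 0.0151), and the call was lost without FHT-1015 4 h replicate 1 (-2.36) or FHT-1015 4 h replicate 3 (-2.15). Replicate 2 was the highest DGKI library of the DMSO group, and without it the log2 fold change was -1.74. The reads did not keep their strand, so reads of a gene and of one that overlaps it on the other strand cannot be told apart. Antisense or other non-coding genes on the other strand also overlap SMARCA4, SMARCA2, MITF, C8orf37, ZNF341, PIK3R3, C11orf96, DGKI, EVA1A, PHACTR1, ASB2, IL6R, CDKN1A and ATOH8.

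C8orf37, a gene of the photoreceptor cilium, had the largest rise among the genes so chosen in the main fit. With offsets and without replicate 2 together its log2 fold change (1.68) was below those of NR4A3 (1.86), ZNF341 (1.80), SPRY1 (1.795) and NR4A2 (1.698). Without both libraries with strong GC trends it (1.961) was below that of ZNF341 (1.972). C8orf37 rose from 6.68, 9.04 and 8.47 CPM to 33.2, 31.9 and 34.9 CPM, 4.14-fold higher. For C8orf37, the log2 fold change was 2.05 (SE 0.23, adjusted p = 0.00177). Its values were even within each group, and no single library decided the call. FHDC1, a formin-type regulator of actin and microtubules, rose from 42.3, 55.0 and 30.4 CPM to 114, 163 and 99.4 CPM. For FHDC1, the log2 fold change was 1.56 (SE 0.27, adjusted p = 0.0167), and the call was lost without DMSO 4 h replicate 1 (1.55), DMSO 4 h replicate 3 (1.37) or FHT-1015 4 h replicate 1 (1.62). DACT1, an inhibitor of WNT signalling, rose from 5.62, 9.68 and 5.09 CPM to 15.7, 21.0 and 23.1 CPM. For DACT1, the log2 fold change was 1.55 (SE 0.26, adjusted p = 0.0158), and the call was lost without DMSO 4 h replicate 1 (1.43) or FHT-1015 4 h replicate 3 (1.44). Of 20 tested WNT modulators edgeR called DACT1 alone, beside 0.679% of all genes, whereas 2 were higher and 1 lower with GC and length offsets, beside 0.974% and 1.57% of all genes. DESeq2 called 2 higher and 2 lower of them, beside 0.823% and 1.53% of all genes, and limma-voom 0 and 1, beside 0.101% and 0.622%. ZNF341, a zinc-finger regulator of STAT3 transcription, rose from 5.96, 2.82 and 3.14 CPM to 10.8, 15.5 and 12.6 CPM. For ZNF341, the log2 fold change was 1.70 (SE 0.29, adjusted p = 0.0167), and the call was lost without DMSO 4 h replicate 2 (1.4997), DMSO 4 h replicate 3 (1.56) or FHT-1015 4 h replicate 3 (1.74).

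TBX3, a T-box factor that represses differentiation genes, rose from 8.47, 8.51 and 5.21 CPM to 20.1, 26.4 and 15.8 CPM. For TBX3, the log2 fold change was 1.49 (SE 0.25, adjusted p = 0.0161), and the call was lost without FHT-1015 4 h replicate 1 (1.51). DLX2, a homeobox factor of the neural crest and forebrain, rose from 37.3, 33.3 and 30.9 CPM to 65.3, 117 and 66.8 CPM. For DLX2, the log2 fold change was 1.29 (SE 0.24, adjusted p = 0.0212), and the call was lost without DMSO 4 h replicate 1 (1.37), DMSO 4 h replicate 2 (1.28) or DMSO 4 h replicate 3 (1.23). PIK3R3, a regulatory subunit of PI3 kinase that overlaps the annotated gene AL358075.4 on the same strand, rose from 12.1, 14.1 and 12.3 CPM to 30.5, 27.5 and 27.95 CPM. For PIK3R3, the log2 fold change was 1.16 (SE 0.19, adjusted p = 0.0154), and the call was lost without FHT-1015 4 h replicate 1 (1.11) or FHT-1015 4 h replicate 3 (1.198). CDH7, a cadherin of neural crest cells (20.5, 41.0 and 27.7 to 69.9, 92.5 and 70.3 CPM), and SLC16A9, a monocarboxylate transporter (3.58, 6.34 and 3.08 to 12.1, 14.7 and 10.6 CPM), rose by 1.38 and 1.53 on the log2 scale (SE 0.25 and 0.28, edgeR adjusted p = 0.0212 and 0.0242). The last 2 calls were lost in 5 and 6 of the 12 fits without 1 library, at log2 fold changes of 1.18 to 1.46 and 1.34 to 1.64.

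Genes of growth arrest, cell death and stress gave few calls, all of them lower, beside 0.522% of all genes called lower and 0.157% higher. Of 30 tested cell cycle genes 1 fell and 0 rose (edgeR; 0 higher also at an unadjusted p under 0.05, by DESeq2 and by limma-voom), with a median of -0.22. The call was CDKN1A, the cyclin-dependent kinase inhibitor p21, at 398, 289.9 and 396 CPM under DMSO and 157, 205 and 179 CPM under FHT-1015. For CDKN1A, the log2 fold change was -1.005 (SE 0.21, adjusted p = 0.0420), and the call was lost in 10 of 12 fits without 1 library (log2 fold changes of -1.01 to -0.92). Of 21 p53 targets 2 fell, BTG2 and CDKN1A, and 0 rose (0 higher at an unadjusted p under 0.05, by DESeq2 and by limma-voom); MDM2, the p53 inhibitor and target, had a log2 fold change of 0.081. Of 16 BCL2 family genes 1 fell, HRK, a BH3-only death activator, from 36.2, 27.9 and 24.6 CPM to 9.45, 12.9 and 7.48 CPM. For HRK, the log2 fold change was -1.57 (SE 0.27, adjusted p = 0.0166), and the call was lost without DMSO 4 h replicate 1 (-1.40), FHT-1015 4 h replicate 1 (-1.54) or FHT-1015 4 h replicate 3 (-1.38). Of 16 ATF4 and unfolded protein stress genes 2 fell: TRIB3, an ATF4-induced pseudokinase, from 59.3, 45.9 and 62.5 CPM to 20.02, 25.0 and 23.0 CPM. For TRIB3, the log2 fold change was -1.30 (SE 0.21, adjusted p = 0.0116), and the call was lost without FHT-1015 4 h replicate 1 (-1.22) or FHT-1015 4 h replicate 3 (-1.29). The other was PPP1R15A, the stress phosphatase subunit GADD34, from 103, 74.4 and 111 CPM to 43.2, 44.5 and 53.7 CPM. For PPP1R15A, the log2 fold change was -1.03 (SE 0.21, adjusted p = 0.0424). PPP1R15A was not called without FHT-1015 replicate 2, and it was lost in 11 of 12 such fits in all (log2 fold changes of -1.11 to -0.91). Of 24 receptor tyrosine kinase and Eph receptor genes 1 fell, EPHB3, an ephrin receptor, from 3.39, 3.05 and 4.797 CPM to 0.556, 1.19 and 0.983 CPM. For EPHB3, the log2 fold change was -2.03 (SE 0.39, adjusted p = 0.0315), and the call was lost in 7 of 12 fits (log2 fold changes of -2.10 to -1.78). At an unadjusted p under 0.05 edgeR gave 1 higher and 3 lower BCL2 family genes. It gave 1 and 5 stress genes and 2 and 3 receptor genes. With GC and length offsets 4 p53 targets, 2 BCL2 family genes and 3 receptor genes were lower, beside 1.57% of all genes. In that fit 0 of each were higher, beside 0.974% of all genes.

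Of 18 YAP and TEAD genes 0 passed in edgeR, DESeq2 and limma-voom, beside 0.679%, 2.36% and 0.723% of all genes, with 0 higher and 2 lower at an unadjusted p under 0.05. The heat shock list gave the same: 0 of 11 by each tool, with 0 higher and 2 lower at an unadjusted p under 0.05, beside the same shares of all genes, and a median of -0.37 that became -0.11 without FHT-1015 replicate 2. Of the named calls, limma-voom with quality weights did not call NR4A2, ZNF341, DACT1, SLC16A9, BICRAL, PPP1R15A and EPHB3, and without both libraries with strong GC trends FHDC1, DACT1, SLC16A9, CDH7, BICRAL, CDKN1A, PPP1R15A and EPHB3 were not called.

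At 24 h the response was broader, and the 4 h calls went different ways. In the same fit 8.69% of genes rose and 10.1% fell at 24 h, against DMSO samples of that time, so the 2 times share no control samples. Of the 25 genes that rose at 4 h, 13 rose at 24 h, 6 fell and 6 were not called; of the 83 that fell at 4 h, 49 fell, 3 rose (SLC2A3, TPBG and FAM43A) and 31 were not called. The shared rises are 52.0% of the 4 h list and 0.940% of the 24 h list, and the shared falls 59.0% and 3.06%. By the test of the difference between the 24 h and the 4 h effect, which called 6.89% of all genes and 3.9% as lower at 24 h, 13 of the 25 and 30 of the 83 differed. In 4 of those 13 and 9 of those 30 the effect was larger at 24 h in the same direction, and in the others smaller or turned. The genes were chosen by their 4 h effect, which also enters this difference. These counts therefore cannot be weighed against the share of all genes. The difference called 1097 genes, and 660 and 597 without DMSO 24 h replicates 1 and 3, 712 without FHT-1015 4 h replicate 1, and 555, 515 and 550 without FHT-1015 24 h replicates 1, 2 and 3.

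SOX10 fell further: its libraries measured 633, 602 and 608 CPM under DMSO and 13.8, 13.4 and 15.3 CPM under FHT-1015 at 24 h. This was a log2 fold change of -5.43 (SE 0.28, adjusted p = 9.17e-08), and the difference from 4 h was -2.40 (SE 0.34, adjusted p = 0.00113). MITF, which overlapped between groups at 4 h, was at 318, 446 and 404 CPM and 100.2, 94.4 and 116 CPM at 24 h. MITF thus had a log2 fold change of -1.91 (SE 0.23, adjusted p = 0.000106), and the difference from 4 h was -1.89 (SE 0.32, adjusted p = 0.00352). Of the melanin and melanosome genes, 17 of 23 fell at 24 h, with a median of -1.49, and 11 of them lower at 24 h than at 4 h by the test of the difference. TYR had a log2 fold change of -2.21 at 24 h, MLANA, a melanosome membrane protein gene, -3.17, and TRPM1, a melanocyte channel gene, -5.33. Of the neural crest and Schwann list 11 of 17 fell and 1 rose at 24 h (median -1.15), and of the cell cycle list 17 of 30 fell and 1 rose (median -0.91). These counts stand beside 18.8% of all genes called at 24 h in either direction.

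Several of the early rises turned. NR4A3 was at 152, 154 and 139.6 CPM under DMSO and 100.3, 70.9 and 82.7 CPM under FHT-1015 at 24 h, below the controls. NR4A3 then had a log2 fold change of -0.81 (SE 0.22, adjusted p = 0.0172) and a difference from 4 h of -2.59 (SE 0.31, adjusted p = 0.000423). MYC was at 298, 232 and 296 CPM and 73.0, 84.9 and 85.8 CPM, -1.76 (SE 0.20, adjusted p = 4.73e-05), a difference of -2.72 (SE 0.27, adjusted p = 0.000129). FHDC1 was at 29.5, 48.6 and 44.8 CPM and 4.32, 4.91 and 5.25 CPM, -3.08 (SE 0.29, adjusted p = 1.60e-05), a difference of -4.64 (SE 0.40, adjusted p = 5.04e-05). TNFRSF19, a receptor of the TNF family, rose at 4 h from 14.6, 16.8 and 13.1 CPM to 38.9, 28.98 and 30.7 CPM. Its 4 h values (log2 fold change 1.15, SE 0.22, adjusted p = 0.0282, lost in 8 of 12 fits without 1 library at 1.00 to 1.24) stand beside a log2 fold change of -1.51 (SE 0.22, adjusted p = 0.000422) at 24 h. NR4A2 stayed higher, at 1.43 (SE 0.24, adjusted p = 0.00112), and its difference between the times was -0.24 (SE 0.34, adjusted p = 0.775). SPRY1 rose further, to 61.4, 56.9 and 56.7 CPM against 4.68, 2.57 and 4.43 CPM under DMSO, a log2 fold change of 3.89 (SE 0.31, adjusted p = 3.79e-06).

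Some early falls were not called at 24 h and others were larger then. BTG2 was at 19.97, 26.8 and 27.7 CPM under DMSO and 22.3, 22.01 and 26.5 CPM under FHT-1015 at 24 h, where the groups overlapped, with a log2 fold change of -0.072 (SE 0.19, adjusted p = 0.845) and a difference from 4 h of 1.33 (SE 0.28, adjusted p = 0.0108). DEPP1 went from a log2 fold change of -2.18 at 4 h to 0.50 at 24 h, a difference of 2.68 (SE 0.42, adjusted p = 0.00220), and EPHB3 from -2.03 to 0.31, a difference of 2.34 (SE 0.53, adjusted p = 0.0182). PHACTR1 went from -2.14 to -4.47, a difference of -2.33 (SE 0.29, adjusted p = 0.000502), and HRK from -1.57 to -4.49, a difference of -2.92 (SE 0.40, adjusted p = 0.000868). IL6R and DUSP4 stayed lower, with log2 fold changes of -2.21 (SE 0.26, adjusted p = 6.33e-05) and -2.23 (SE 0.24, adjusted p = 3.73e-05) and differences between the times of -0.26 (SE 0.35, adjusted p = 0.762) and -0.65 (SE 0.33, adjusted p = 0.286).

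**Figure D4:**
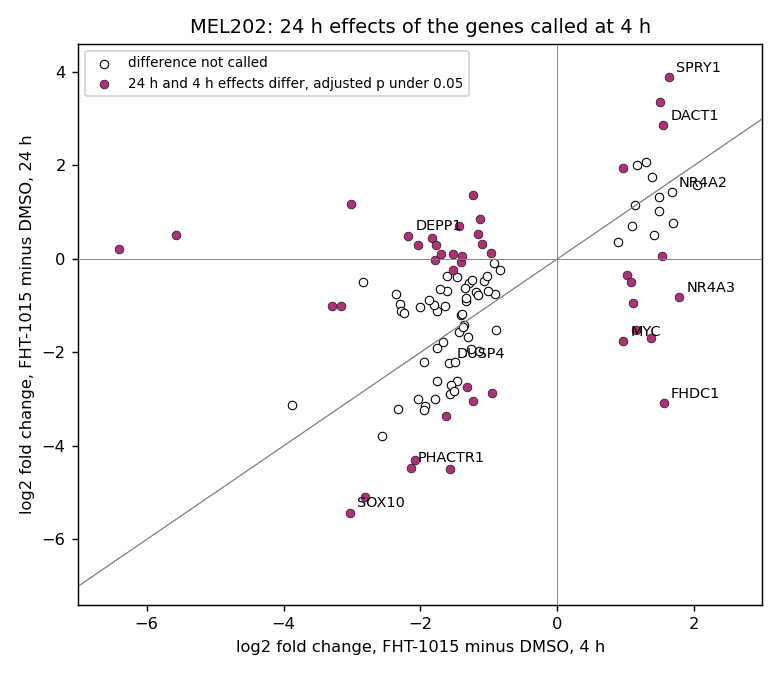
Log2 fold change (FHT-1015 minus DMSO) in MEL202 at 24 h on the vertical axis against that at 4 h on the horizontal axis for the genes called at 4 h, 1 point per gene, filled where the 2 effects differ by the test, with a line of equal effects. SOX10 lies low at both times (-3.04 and -5.43), whereas NR4A3, MYC and FHDC1 lie right of 0 at 4 h and below 0 at 24 h.

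Nearly all of these genes were called in the same direction in 92-1 after 4 h of FHT-1015. Of the 25 genes that rose in MEL202, 24 rose in 92-1 (against 12.9% of all genes tested there) and 6 of 24 tested rose in MP41 (against 0.0708%). Of the 83 that fell, 74 of 76 tested fell in 92-1 (against 16.7%) and 9 of 76 fell in MP41 (against 0.154%), and none was called in the opposite direction in either line. Over the 3 lines, 5 of the rises and 7 of the falls were called in every line. SOX10 had log2 fold changes of -4.94 (SE 0.15, adjusted p = 2.34e-11) in 92-1 and -2.26 (SE 0.20, adjusted p = 0.000449) in MP41. By the test of the difference between lines the SOX10 fall was smaller in MEL202 than in 92-1 by 1.88 (SE 0.29, adjusted p = 0.000325), and the difference from MP41 was -0.78 (SE 0.28, adjusted p = 0.611). Among the other genes, the log2 fold change of NR4A3 was 1.82 in 92-1 and 1.06 in MP41, MYC 0.53 in 92-1 and 0.77 in MP41, DUSP4 -1.70 in 92-1 and -0.53 in MP41, IL6R -2.99 in 92-1 and -1.29 in MP41 and BTG2 -1.74 in 92-1 and -0.46 in MP41.

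The 4 h effect differed between MEL202 and 92-1 in 117 of 18395 genes (0.636%, with 0.114% lower in MEL202), among them 5 of the 25 rises (NR4A2, DLX2, SPRY2, TNFRSF19 and TBX3) and 9 of the 83 falls. These rises and falls were chosen by their MEL202 effect, which also enters the difference. The 5 and the 9 therefore cannot be weighed against that share. DLX2 had a log2 fold change of 4.72 (SE 0.28, adjusted p = 1.20e-08) in 92-1, and the difference was -3.45 (SE 0.37, adjusted p = 1.11e-06). TBX3 was the other way round, at 1.49 in MEL202 and -0.018 (SE 0.099, adjusted p = 0.917) in 92-1, a difference of 1.49 (SE 0.24, adjusted p = 0.000710). ATOH8, a bHLH factor gene that BMP signals induce, was not called in MEL202 (-0.29) and had -3.68 (SE 0.17, adjusted p = 1.48e-09) in 92-1, a difference of 3.37 (SE 0.30, adjusted p = 3.29e-08). SS18L1, a BAF subunit gene, had -0.086 in MEL202 and -1.59 (SE 0.086, adjusted p = 5.11e-09) in 92-1, a difference of 1.49 (SE 0.17, adjusted p = 3.87e-06). From MP41, 3 genes differed (0.0163%), TRIM63, BAMBI and KLHDC8B, all of them lower in MEL202. TRIM63 had 0.10 (SE 0.21, adjusted p = 1.00) in MP41, a difference of -2.90 (SE 0.40, adjusted p = 0.000663). BAMBI, a pseudoreceptor that blunts TGF-beta signals, had -0.72 in MEL202 and 0.87 (SE 0.15, adjusted p = 0.0295) in MP41, a difference of -1.59 (SE 0.26, adjusted p = 0.00958). KLHDC8B, a kelch-domain gene of cell division, fell in MEL202 from 68.0, 49.3 and 77.9 CPM to 17.5, 19.3 and 19.8 CPM. For KLHDC8B, the log2 fold change was -1.79 (SE 0.21, adjusted p = 0.00177). KLHDC8B had -0.37 (SE 0.18, adjusted p = 0.897) in MP41, a difference of -1.42 (SE 0.25, adjusted p = 0.0211). TPRN, a stereocilia gene that overlaps TMEM203 on the same strand, had the fourth smallest p of this comparison. It fell in MEL202 from 106, 59.7 and 81.4 CPM to 29.4, 31.0 and 37.3 CPM (log2 fold change -1.34, SE 0.23, adjusted p = 0.0158, lost without FHT-1015 4 h replicate 1 (-1.27) or FHT-1015 4 h replicate 3 (-1.42)), and its difference from MP41 was -1.52 (SE 0.30, adjusted p = 0.0647). The number of differing genes rested on single libraries: against 92-1 it was 65 and 76 without 92-1 DMSO 4 h replicates 2 and 3, 68 and 62 without 92-1 FHT-1015 4 h replicates 2 and 3, 179 and 73 without MEL202 DMSO 4 h replicates 1 and 3, and 72 and 216 without MEL202 FHT-1015 4 h replicates 2 and 3. Against MP41 it was 1 without MEL202 DMSO 4 h replicate 3, MEL202 FHT-1015 4 h replicate 1, MP41 DMSO 4 h replicate 3 or MP41 FHT-1015 4 h replicate 1, 5, 6 and 9 without MEL202 DMSO 4 h replicates 1 and 2 and FHT-1015 4 h replicate 2, and 5, 7 and 6 without MP41 DMSO 24 h replicates 2 and 3 and MP41 FHT-1015 4 h replicate 2.

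**Figure D5:**
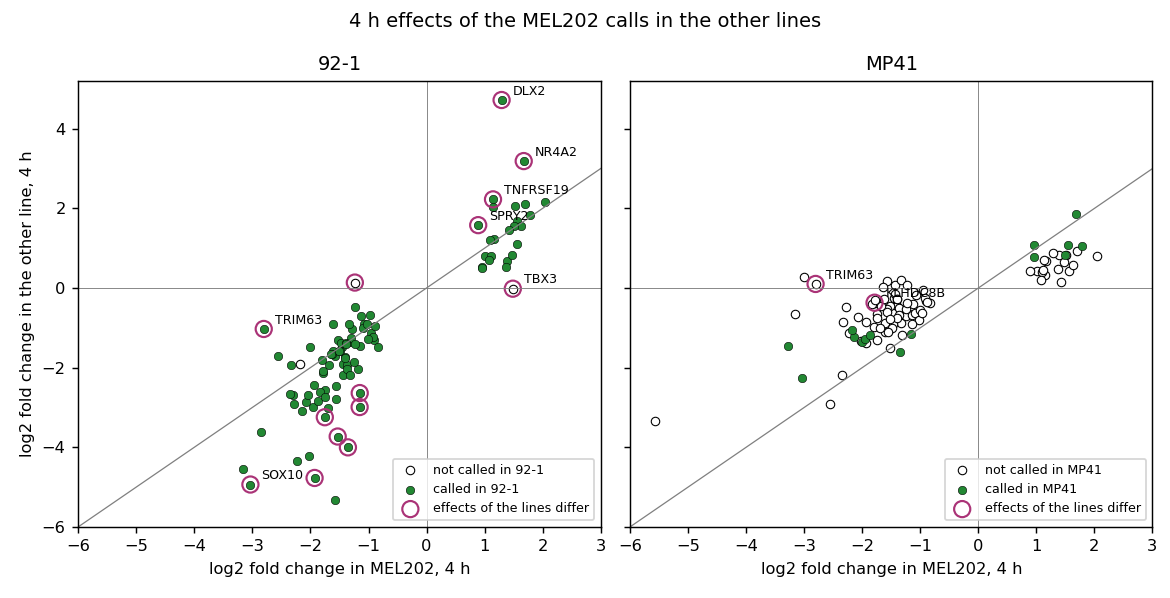
Log2 fold change at 4 h in 92-1 (left panel) and MP41 (right panel) on the vertical axis against that in MEL202 on the horizontal axis for the genes called in MEL202, 1 point per gene, filled green where called in that line and ringed where the effects of the lines differ, with a line of equal effects. In 92-1 most points are filled and lie in the quadrants of equal sign, and SOX10 lies lower in 92-1 than in MEL202.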

How the data were processed

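RNA of MEL202 cells was sequenced as poly-A mRNA libraries. The authors deposited raw counts of reads per gene for each sample, and the submitters' processing notes name hg38 and limma; the aligner is not given in the sources used here. The counts without regard to strand were used, since the reads split evenly between the strands, and gene positions are those of GENCODE 29. Rows of 92 spike-in sequences held 0 reads, and 0 columns lacked a sample.

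Genes passing filterByExpr were fitted with edgeR 4.0.16 in R 4.3.3 (TMM normalization, quasi-likelihood F-test, Benjamini-Hochberg adjustment, threshold 0.05). A fit took in the 12 MEL202 samples as 4 groups without a replicate block, and comparisons of lines the 36 samples of the FHT-1015 experiments. CPM are counts scaled by the TMM-adjusted library size. Offsets for GC content and length came from a lowess curve (span 0.3) per library on log CPM with a prior count of 2. Alternatives included limma 3.58.1 with voom quality weights and DESeq2 1.42.0. On simulated counts for the 4 h comparison, over 15825 genes, 100 genes were changed by 1 and 100 by 2 on the log2 scale. These were drawn from genes above 2 CPM. The fit found 18% of the genes changed by 1 and 95% of those changed by 2 (61% and 98% with offsets). The counts were simulated with the same GC and length trends that the offsets remove. The simulation therefore cannot show what the offsets gain in the real data. The loss of genes in FHT-1015 replicate 2 was not simulated.

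The members and gene lists were chosen with earlier results of these data known. Genes named are SMARCA4, SMARCA2, SOX10 and MITF; the 12 held protein-coding genes with the largest change in each direction, with groups that do not overlap and a mean of at least 5 CPM; called members of the lists (at most 6 a list); and, for the difference between times and from each other line, the 4 genes ranked first by p. The rule gave 48 genes, and the results of 2 of them are not reported here. Other list members are given as values to describe a list. The p-values rest on the spread between samples labelled as biological replicates. For the 4 h calls in MEL202 this spread was pooled over the 12 MEL202 libraries, those of 24 h included. It is thus not the spread of the 6 libraries of 4 h alone. With those alone 0 genes passed in edgeR (589 at an unadjusted p under 0.05). The limma-voom quality weights were 0.12 to 2.54 at 4 h and 0.66 to 5.38 at 24 h.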

Additional observations from a re-analysis of the deposited data

Results flagged for a closer look

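The effect of FHT-1015 differed between 24 h and 4 h by the test of the difference (edgeR, adjusted p under 0.05) in 22 of the named genes; values are log2 effects at 24 h minus those at 4 h. This test called 6.89% of all genes, and FHDC1, NR4A3, MYC and TNFRSF19 meet the naming rule by their p in it, so their calls were fixed by that choice. Genes named for their 4 h call were chosen by an effect that enters this difference. The count of 22 therefore cannot be weighed against that share. The effect was more negative at 24 h in SOX10 (-2.40), MITF (-1.89), NR4A3 (-2.59), FHDC1 (-4.64), SLC16A9 (-1.46), TRIM63 (-2.29), PHACTR1 (-2.33), ASB2 (-2.23), KLF10 (-1.35), MYC (-2.72), HRK (-2.92), TNFRSF19 (-2.66) and SS18L1 (-1.05). It was more positive at 24 h in SPRY1 (2.26), DACT1 (1.30), C11orf96 (2.16), DEPP1 (2.68), BTG2 (1.33), EPHB3 (2.34), ATOH8 (1.48), BAMBI (1.56) and KLHDC8B (1.76).

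The 4 h effect in MEL202 differed from that in 92-1 in 9 of the named genes; values are log2 effects in MEL202 minus those in 92-1. This test called 0.636% of all genes, and that against MP41 0.0163%. DLX2, ATOH8 and SS18L1 (92-1) and TRIM63, BAMBI and KLHDC8B (MP41) meet the rule by their p in these tests, so their calls too were fixed by the choice. Genes named for their 4 h call in MEL202 were likewise chosen by an effect that enters these differences. The effect was higher in MEL202 for SOX10 (1.88), TBX3 (1.49), ATOH8 (3.37) and SS18L1 (1.49), and lower for NR4A2 (-1.52), DLX2 (-3.45), TRIM63 (-1.78), SPRY2 (-0.70) and TNFRSF19 (-1.09). Against MP41 it was lower for TRIM63 (-2.90), BAMBI (-1.59) and KLHDC8B (-1.42).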

How the results depend on the processing

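The calls at 4 h (25 higher, 83 lower) were 24 and 80 with RLE normalization. In this order (higher and lower at 4 h; 24 h against 4 h, 1097; against 92-1, 117; against MP41, 3), DESeq2 gave 131, 244, 1873, 228 and 19 genes, GC and length offsets 155, 250, 2792, 391 and 27, these offsets without FHT-1015 4 h replicate 2 141, 221, 3240, 314 and 24, and one fit of all 48 samples 370, 472, 3458, 215 and 17. With no filter on low counts, 53 and 154 genes were called at 4 h, 187 against 92-1 and 22 against MP41. Limma-voom gave 16 higher at 4 h, 2551 for the times and 9 against MP41, and the sum of the stranded columns 5 against MP41. With only the 6 samples of 4 h, 0 and 0 genes passed in edgeR (589 at an unadjusted p under 0.05, both directions together), and with only the 4 h samples of both lines 7 against 92-1 and 0 against MP41 (466 at an unadjusted p under 0.05). Leaving out both libraries with strong GC trends, chosen after seeing the data, gave 26, 102 and 2091. The samples were not treated as paired by replicate number. The correlation of same-numbered samples, as deviations from their group means, was -0.32, 0.03 and 0.51 at 4 h and -0.08, -0.19 and 0.14 at 24 h. That of differently numbered samples was -0.42 to 0.39 at 4 h and -0.18 to 0.21 at 24 h, so the value of replicate 3 at 4 h was the highest. A replicate block gave 15 higher genes at 4 h and 8 against MP41, without the calls of MYC, SPRY2, CISH, CDKN1A, PPP1R15A and TNFRSF19, and a replicate block with GC and length offsets 152, 264, 2944, 522 and 51. Leaving out 1 library each gave 6 to 25 higher and 22 to 112 lower genes at 4 h, 515 to 1562 for the times, 62 to 216 against 92-1 and 1 to 9 against MP41. Signs changed in 4 genes, none of them called at 4 h. SMARCA4 was at -0.087 without FHT-1015 4 h replicate 2 and at up to 0.59 without another library. SMARCA2 was at -0.042 with offsets, -0.045 with the replicate block and offsets, and at -0.024 to 0.25 without 1 library. MITF was at 0.0027 with the replicate block, 0.0029 with 6 samples, 0.061 by limma-voom, and at -0.20 to 0.18 without 1 library. SS18L1 was at -0.21 to 0.00083 without 1 library. Of the values for single genes and lists in the alternatives, 1502 kept their direction and side of the threshold, 187 lost the call, 1 gained it, 219 moved and 11 changed sign; the cause was not tested. A gene changed by 1 on the log2 scale is found in few cases at this spread, so a gene not called is not shown to be unchanged.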

Other observations

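Beside the genes above, the following single genes of the 83 falls were chosen after their values were seen, and they do not stand for a group. PDGFB, a platelet-derived growth factor chain, was at 122, 97.2 and 91.3 CPM under DMSO and 26.9, 37.5 and 27.6 CPM under FHT-1015, a log2 fold change of -1.75 (SE 0.20, adjusted p = 0.00177). PDGFA, the other classical chain, was at 74.3, 66.5 and 85.0 CPM and 20.02, 40.4 and 23.0 CPM, -1.44 (SE 0.25, adjusted p = 0.0166), a call lost without FHT-1015 4 h replicate 1 (-1.25) or 3 (-1.31). The retinoic acid receptor genes RARA (37.7, 22.2 and 25.8 CPM and 10.01, 10.8 and 9.01 CPM, -1.52 (SE 0.22, adjusted p = 0.00604)) and RARG (47.2, 36.3 and 35.2 CPM and 18.0, 19.7 and 18.8 CPM, -1.07 (SE 0.19, adjusted p = 0.0167)) also fell. The RARA call was lost without FHT-1015 4 h replicate 3 (-1.44) and the RARG call without replicate 1 (-1.04) or 3 (-1.05). At 24 h the log2 fold changes were -2.62, -1.55, -0.24 and -0.46 in this order. ARC, an activity-induced immediate early gene of neurons that was not on the list, fell from 16.9, 10.5 and 10.4 CPM to 3.89, 4.63 and 4.15 CPM, -1.57 (SE 0.29, adjusted p = 0.0212), and its call was kept with offsets and without FHT-1015 replicate 2. The ARC call was lost without DMSO 4 h replicate 1 (-1.30), DMSO 24 h replicate 3 (-1.56) and FHT-1015 4 h replicates 1 (-1.52) and 3 (-1.54), and without both libraries with strong GC trends (-1.37).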
